A study of Homo sapiens with 12 samples.

Results

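The genes described here are 10 immediate early and AP-1 genes, taken by name from 19923 protein-coding genes counted in each library, with earlier results of these data known. They are 4 members of the FOS family (FOS, FOSB, FOSL1 and FOSL2), 3 members of the JUN family (JUN, JUNB and JUND) and 3 further immediate early genes (EGR1, IER2 and GADD45B). Polyadenylated RNA was sequenced from 2 established human neuroblastoma lines with amplified MYCN, SK-N-BE2 and NGP, both of wild-type genotype per the labels. STM2457 is a small-molecule inhibitor of METTL3, the enzyme that places N6-methyladenosine on messenger RNA. The 4 groups were SK-N-BE2 with DMSO, SK-N-BE2 with 12 µM STM2457, NGP with DMSO and NGP with 1 µM STM2457, each after 6 days and in 3 replicates. Nothing in the labels says that replicates came from separate cultures, so p-values measure the spread between these libraries, which may be technical. The headers of the counts carry a different dated name for each line, taken here as a separate run, which the sample titles do not state. Each line also received its own dose, so effects of the line, the dose and the run cannot be told apart.

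Immediate early genes are transcribed within minutes of a growth factor, stress or calcium signal, without new protein synthesis, and their transcripts are usually short-lived. FOS and JUN proteins pair through leucine zippers to form AP-1, a transcription factor that binds the site TGANTCA. JUN proteins can pair with one another, whereas FOS proteins need a partner from another family. In cells of neural origin, transcripts of FOS and EGR1 are widely used as readouts of recent signalling through ERK kinases, calcium and cAMP.

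Libraries held 47242379 to 58159937 counted reads. The replicate 1 library of NGP with DMSO stood apart from the other 2 of its group, with a median absolute log2 difference of 0.383 and 0.316 from them against 0.140 between those 2. Of 8 adrenergic neuroblastoma markers, 7 had a mean of at least 1 CPM (CPM are counts scaled to library size, here TMM-adjusted over all libraries) in each group. White blood cell markers summed to at most 2.17 CPM per library. Fibroblast and mesenchymal markers (6 genes) summed to 106 to 121 CPM in SK-N-BE2 with DMSO and 194 to 209 with STM2457. In NGP they summed to 189 to 209 with DMSO and 452 to 512 with STM2457. COL1A2 was nearly absent, with 9 reads over the NGP controls and 6 over the treated NGP libraries. The other markers had higher means with STM2457 in both lines, and PDGFRA (mean 132 CPM) made most of the sum in NGP with DMSO. These sums moved with treatment in both lines, and their part in the results on the 10 genes was not tested.

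FOS, FOSB and EGR1 are the members that rose in NGP, and their promoters are shown because all 3 hold a half-site of the cAMP response element, the site bound by CREB. The half-site also lies in JUND, which fell in NGP (-1.43), and in FOSL2, which was not called there (-0.16). A relation of the site to the responses was not tested. The 250 bases before each start site are given from RefSeq (GRCh38.p14), read 5′ to 3′ on the gene's strand. All 3 genes lie on the plus strand, at chr14:75278578-75278827, chr19:45467746-45467995 and chr5:138465229-138465478 in the order printed. Capitals mark TGACGT on either strand (ACGTCA on the other) and, in EGR1, the CArG boxes CCATATTAGG and CCATATATGG, the kind of site bound by serum response factor.
FOS: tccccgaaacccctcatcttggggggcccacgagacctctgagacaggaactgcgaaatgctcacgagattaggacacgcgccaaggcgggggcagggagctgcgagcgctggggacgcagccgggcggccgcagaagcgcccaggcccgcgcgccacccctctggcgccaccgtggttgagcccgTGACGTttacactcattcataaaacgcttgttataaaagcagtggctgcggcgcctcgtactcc
FOSB: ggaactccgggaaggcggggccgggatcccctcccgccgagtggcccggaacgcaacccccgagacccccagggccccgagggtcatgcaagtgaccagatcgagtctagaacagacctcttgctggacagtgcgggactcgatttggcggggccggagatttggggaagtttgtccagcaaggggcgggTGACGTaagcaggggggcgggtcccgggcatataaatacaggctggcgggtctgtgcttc
EGR1: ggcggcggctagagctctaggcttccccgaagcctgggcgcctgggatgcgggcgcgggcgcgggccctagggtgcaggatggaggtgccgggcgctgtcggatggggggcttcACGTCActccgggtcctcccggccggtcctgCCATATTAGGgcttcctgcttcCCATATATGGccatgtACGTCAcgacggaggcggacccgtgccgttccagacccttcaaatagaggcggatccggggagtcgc

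TGACGT on either strand lay in the window from 250 bases before to 50 bases after the start of 5 of the 9 members with a RefSeq promoter (FOS, FOSB, FOSL2, JUND and EGR1), against 7.98% of 35116 promoters of that length. In FOS, FOSB and FOSL2 it began 64, 60 and 66 bases before the start. EGR1 had it 136 and 67 bases before the start, with CArG boxes 105 and 83 bases before it. Within this window, CArG boxes stood in EGR1 alone among the 9 members, against 1.29% of all promoters. Sites more than 250 bases before the start were not searched, so other members may hold CArG boxes there. The AP-1 site TGANTCA lay in FOSL2 (7.71% of all promoters), the palindrome TGACGTCA, which also holds TGACGT, in JUND (1.85%) and the EGR site GCGGGGGCG in GADD45B (5.07%). These matches describe letters in the window and no binding.

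After STM2457, FOS and EGR1 fell in SK-N-BE2 and rose in NGP, and they were the only members called in both lines. In SK-N-BE2, 5 fell (FOS, JUNB, EGR1, IER2 and GADD45B) and FOSL2 rose, so that 6 of 10 were called by edgeR's quasi-likelihood test at an adjusted p of 0.05. Of all 14013 genes tested in that line 54.7% were called, 26.9% higher and 27.8% lower. The median log2 change of the 10 genes was -1.01, against -0.02 for all genes. In NGP, FOS, FOSB and EGR1 rose and JUN and JUND fell, 5 called of 9 tested, against 41.7% of 13610 genes (19.4% higher and 22.2% lower). Their median there was 0.15, against -0.03 for all genes. GADD45B had too few reads in NGP to be tested.

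**Figure D1:**
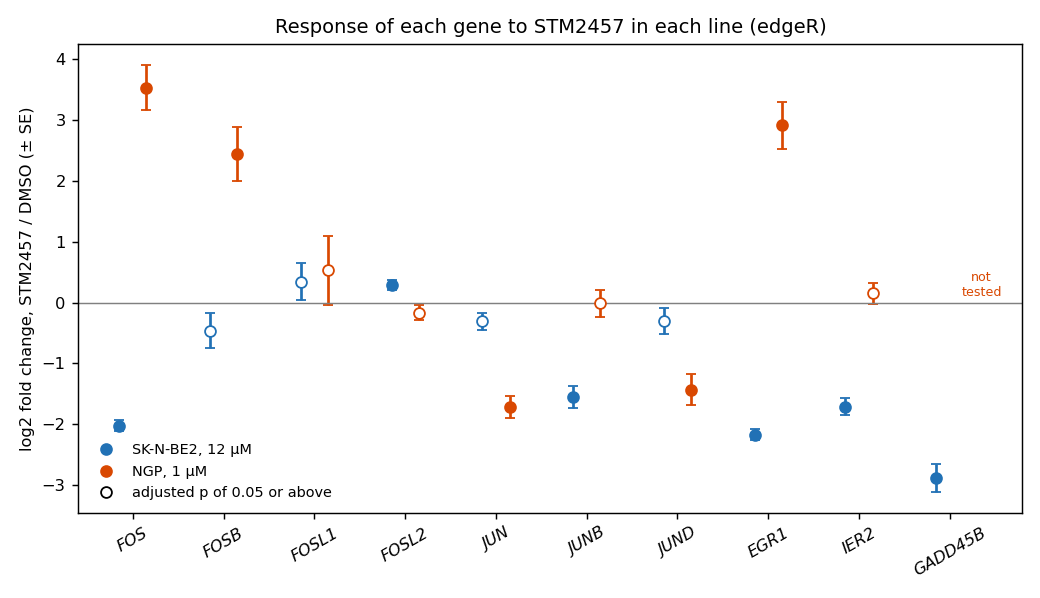
Log2 fold change of each gene with STM2457 against DMSO (vertical axis, ± SE, edgeR), with SK-N-BE2 in blue and NGP in orange and open symbols for an adjusted p of 0.05 or above. FOS and EGR1 lie at -2.02 and -2.17 in SK-N-BE2 and at 3.53 and 2.91 in NGP, while GADD45B was not tested in NGP.

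FOS, the best-known partner of JUN in AP-1, fell in SK-N-BE2 and rose in NGP. In SK-N-BE2 it measured 67.7, 71.7 and 78.1 CPM in the 3 DMSO libraries and 17.1, 19.6 and 18.2 CPM with STM2457. The treated libraries all lay below the controls, by 4.06-fold in the fit (log2 change -2.02, SE 0.09, edgeR adjusted p 3.51e-09). In NGP the DMSO libraries held 1.63, 3.25 and 1.13 CPM and the STM2457 libraries 30.4, 19.9 and 20.4 CPM. Here each treated library lay above each control, 11.5-fold higher in the fit (log2 change 3.53, SE 0.37, edgeR adjusted p 0.000188). The 4 groups did not overlap in FOS. Their order was SK-N-BE2 with DMSO, NGP with STM2457, SK-N-BE2 with STM2457 and NGP with DMSO, with a ratio of 36.2 between the highest and the lowest mean. The deposited annotation places FOS on chromosome 14 at 75278826 to 75282230 of GRCh38.

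EGR1, a zinc finger transcription factor, followed the same directions as FOS. It measured 473, 416 and 459 CPM in SK-N-BE2 with DMSO and 98.3, 106 and 103 CPM with STM2457. All treated libraries were lower, by 4.50-fold (log2 change -2.17, SE 0.09, edgeR adjusted p 8.74e-10). In NGP the libraries with DMSO gave 8.001, 12.8 and 3.79 CPM and those with STM2457 gave 77.2, 62.2 and 49.3 CPM. The increase was 7.53-fold (log2 change 2.91, SE 0.39, edgeR adjusted p 0.000653), with no overlap between groups. Replicate 2 was the highest and replicate 3 the lowest of the NGP controls for both EGR1 and FOS. EGR1 had the widest spread of group means among the 9 members with reads in all groups, a ratio of 54.8 between SK-N-BE2 and NGP with DMSO, and no neighbouring groups overlapped. It lies on chromosome 5 at 138465479 to 138469303.

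FOSB, a relative of FOS, was scarce in every group. In NGP its controls held 10, 6 and 12 reads (0.199, 0.117 and 0.233 CPM) and its treated libraries 68, 38 and 41 reads (1.45, 0.813 and 0.809 CPM). All treated libraries exceeded the controls (log2 change 2.44, SE 0.44, edgeR adjusted p 0.00277). SK-N-BE2 libraries gave 3.29, 1.61 and 1.97 CPM with DMSO and 1.99, 1.37 and 1.77 CPM with STM2457. Those groups overlapped and the difference did not pass the test (log2 change -0.46, SE 0.28, edgeR adjusted p 0.181). FOSB lies on chromosome 19 at 45467995 to 45475179.

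FOSL1 and FOSL2 encode the FOS-related antigens, which lack the strong activation domain of FOS. FOSL2 was the member that varied least, with a ratio of 2.16 between its highest and lowest group means. In SK-N-BE2 it rose from 73.1, 64.6 and 70.3 CPM to 87.8, 87.2 and 85.3 CPM. The groups were separate, although the shift was small (log2 change 0.29, SE 0.08, edgeR adjusted p 0.00717). In NGP FOSL2 measured 37.7, 49.4 and 45.8 CPM with DMSO and 41.4, 40.8 and 38.5 CPM with STM2457. The NGP groups overlapped and did not pass the test (log2 change -0.16, SE 0.12, edgeR adjusted p 0.323), but without replicate 1 of the NGP controls the value was -0.27 and was called (adjusted p 0.0138).

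FOSL1 was close to the limit of detection in NGP, where the controls held 15, 7 and 14 reads and the treated libraries 7, 26 and 17 reads. Its NGP groups overlapped (log2 change 0.53, SE 0.57, edgeR adjusted p 0.487). FOSL1 in SK-N-BE2 gave 1.77, 0.906 and 1.72 CPM with DMSO and 1.74, 1.45 and 2.53 CPM with STM2457. Those groups overlapped too (log2 change 0.34, SE 0.30, edgeR adjusted p 0.363). FOSL1 lies on chromosome 11 at 65892049 to 65900573 and FOSL2 on chromosome 2 at 28392448 to 28417317.

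**Figure D2:**
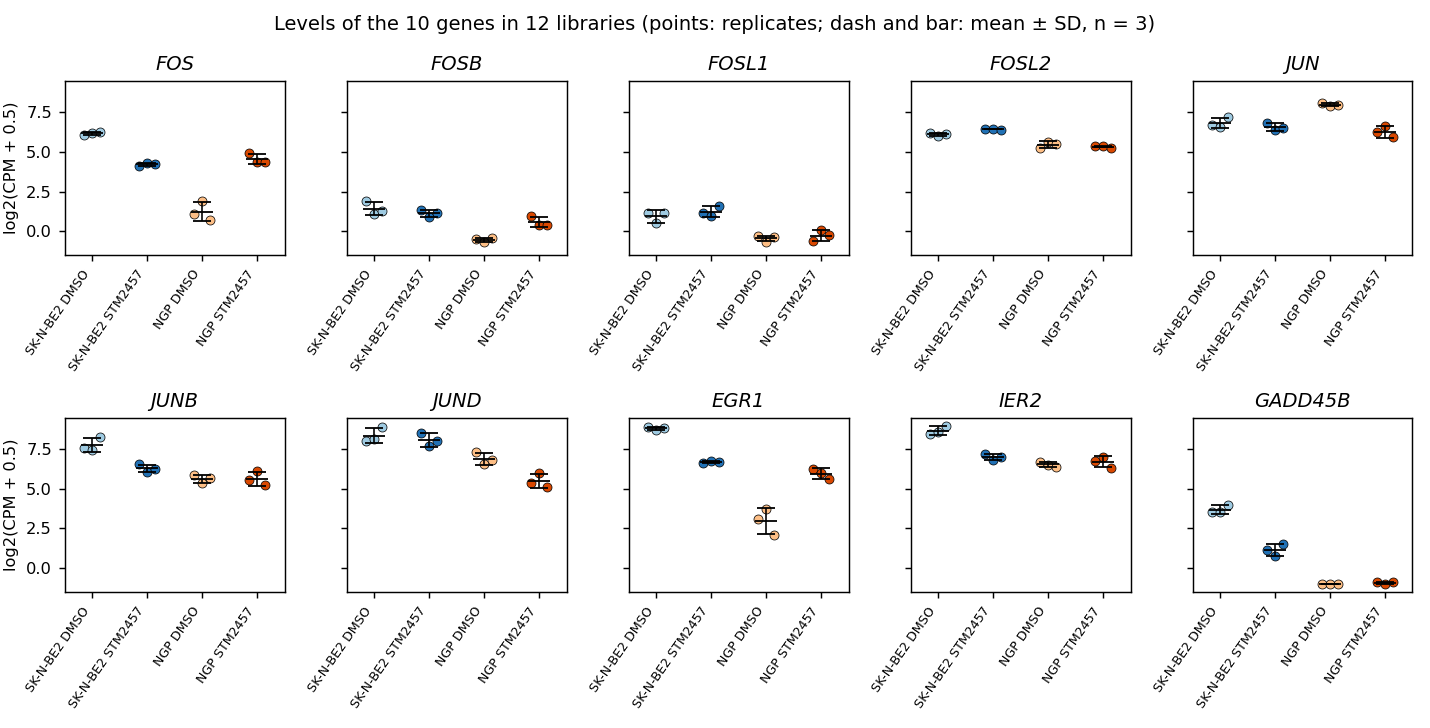
Level of each of the 10 genes in log2(CPM + 0.5) (vertical axis, shared by all panels) in the 4 groups, with points for replicates and a dash and bar for mean ± SD (n = 3). The 4 groups of FOS and of EGR1 are separate, those of FOSL2 lie close together, and GADD45B sits at the floor in NGP.

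JUN, the central AP-1 subunit, was the member for which NGP with DMSO held the highest level. Its 3 NGP controls measured 272, 237 and 252 CPM and the treated libraries 75.4, 99.8 and 60.3 CPM. No treated library reached a control (log2 change -1.72, SE 0.17, edgeR adjusted p 0.000153). The level of JUN in SK-N-BE2 was 105, 96.3 and 147 CPM with DMSO and 114, 82.0 and 92.7 CPM with STM2457. Those groups overlapped (log2 change -0.31, SE 0.15, edgeR adjusted p 0.0883). The SK-N-BE2 value was called without replicate 2 of the controls (-0.42, adjusted p 0.0304) and without replicate 1 of the treated libraries (-0.44, adjusted p 0.0318). JUN is a gene of 1 exon on chromosome 1 at 58780791 to 58784047.

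JUNB, which forms AP-1 of weaker activity on many sites than JUN, fell in SK-N-BE2. It measured 193, 175 and 302 CPM with DMSO and 93.4, 67.1 and 73.9 CPM with STM2457 there. Every treated library was below every control (log2 change -1.55, SE 0.18, edgeR adjusted p 8.12e-06). In NGP the controls gave 57.3, 40.7 and 51.7 CPM and the treated libraries 45.5, 68.8 and 36.8 CPM. The treated libraries spanned the range of the controls (log2 change -0.01, SE 0.23, edgeR adjusted p 0.973). After removal of the GC trend of each library, an alternative added after seeing the data, JUNB was called higher in NGP (0.41, adjusted p 0.0165). That removal also takes out any GC trend between treated and control libraries. JUNB is a gene of 1 exon on chromosome 19 at 12791486 to 12793315, and 14.2% of its exon length is shared with HOOK2 on the other strand. No strand option was used in counting, so reads of the overlap cannot be assigned to either gene with certainty.

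JUND, the JUN member that is usually least dependent on stimulation, fell in NGP. The controls measured 160, 95.03 and 111 CPM and the treated libraries 41.0, 62.9 and 33.9 CPM. All treated libraries were lower (log2 change -1.43, SE 0.26, edgeR adjusted p 0.00274). The SK-N-BE2 replicates were far apart, at 254, 281 and 470 CPM with DMSO and 371, 207 and 257 CPM with STM2457. The groups overlapped (log2 change -0.30, SE 0.22, edgeR adjusted p 0.257). Without replicate 3 of the SK-N-BE2 controls the change was 0.02, and without replicate 1 of the treated libraries it was -0.56 and was called (adjusted p 0.0448). JUND is a gene of 1 exon on chromosome 19 at 18279694 to 18281622.

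IER2, an immediate early gene whose product is a nuclear protein, fell in SK-N-BE2 beside JUNB. It measured 349, 387 and 507 CPM with DMSO and 146, 112 and 131 CPM with STM2457. The groups were separate (log2 change -1.71, SE 0.14, edgeR adjusted p 3.50e-07). In NGP it gave 105, 89.8 and 83.9 CPM with DMSO and 106, 129 and 79.8 CPM with STM2457. These groups overlapped (log2 change 0.15, SE 0.17, edgeR adjusted p 0.512), and with the GC trend removed the value was 0.34 and was called (adjusted p 0.0484). IER2 lies on chromosome 19 at 13150411 to 13154911. In GENCODE 44, 52.2% of its exon length is shared with long noncoding RNAs on the other strand, so its counts are uncertain in that respect.

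GADD45B, a stress-response gene whose product acts on the p38 and JNK kinase pathways, fell in SK-N-BE2. It measured 10.98, 10.9 and 15.4 CPM with DMSO and 1.66, 1.17 and 2.34 CPM with STM2457. No treated library came near the controls (log2 change -2.88, SE 0.22, edgeR adjusted p 3.03e-07). In NGP its reads were 0 in all 3 controls and 2, 0 and 2 in the treated libraries. A total of 4 reads has an exact 95% Poisson interval of 1.09 to 10.2 reads, and 0 reads over the control group allow up to 3 reads, or 0.0196 CPM. Both cover counting error only and are too narrow if both reads of a fragment were counted. GADD45B lies on chromosome 19 at 2476122 to 2478259.

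GADD45A and GADD45G, the other members of its family, fell in both lines. Mean GADD45A was 80.9 CPM in untreated and 35.6 CPM in treated SK-N-BE2 (log2 change -1.22, edgeR adjusted p 1.39e-05). In NGP the means of GADD45A were 85.3 and 32.99 CPM (-1.40, edgeR adjusted p 0.000404). GADD45G had means of 25.9 and 1.73 CPM in SK-N-BE2 (-3.94, edgeR adjusted p 4.20e-08) and of 81.3 and 25.1 CPM in NGP (-1.72, edgeR adjusted p 0.00104). GADD45B was the member of the family with 0 to 2 reads per NGP library.

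JUN, JUNB, JUND and IER2 also shared a pattern among replicates, a grouping made after their values were seen. In 1428 genes of the highest GC content (at least 62.4%), the libraries' median deviation from their group means ranged from -0.23 to 0.30 on the log2 scale. The deviation of JUN and of JUND had the sign of that library median in 12 of 12 libraries, that of JUNB in 11 and that of IER2 in 10. For FOS, FOSB, FOSL2 and EGR1 it had that sign in 6 of 12, for FOSL1 in 7 and for GADD45B in 5. JUND, JUNB and IER2 have transcripts of 69.9%, 64.9% and 63.0% GC. FOSL1 (58.7%), FOSB (57.6%) and GADD45B (57.4%) have a higher GC content than JUN (56.1%), and EGR1 (55.3%), FOSL2 (53.3%) and FOS (52.8%) a lower one, against a median of 49.0% over all genes with a MANE Select transcript. With the GC trend removed, the falls kept their calls. JUNB stood at -1.33 (SE 0.08) and IER2 at -1.59 (SE 0.09) in SK-N-BE2, and JUN at -1.74 and JUND at -0.98 (SE 0.10) in NGP. The removal took out any GC trend between DMSO and STM2457 libraries as well as that among replicates. In the main fit JUND stood at -1.43 in NGP.

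**Figure D3:**
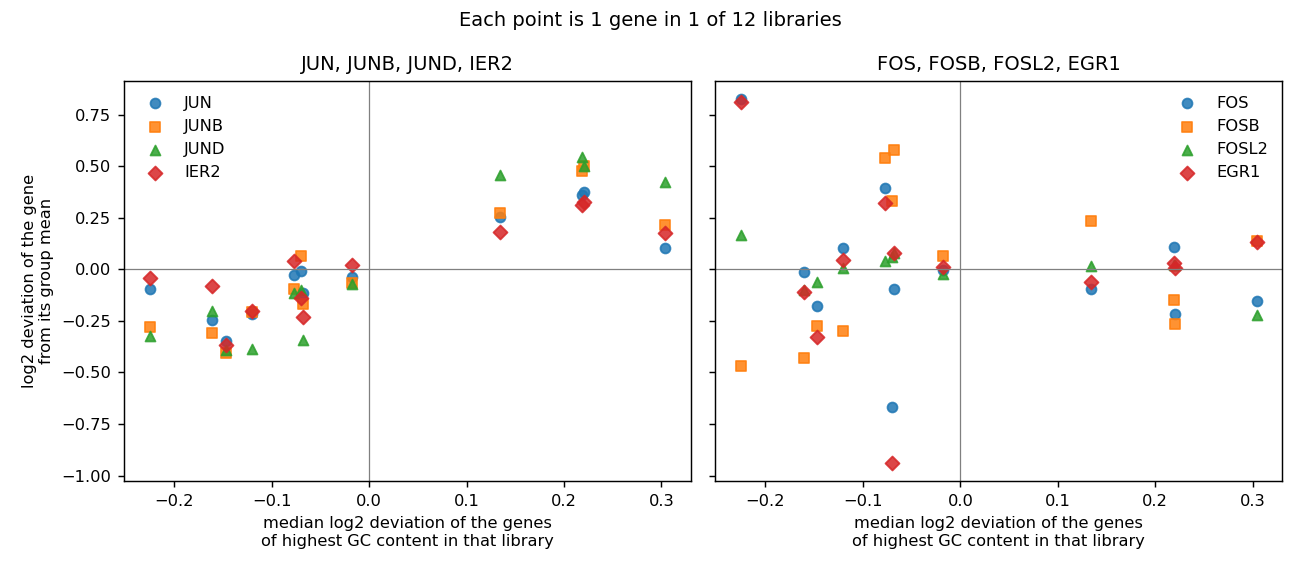
Deviation of a gene from its group mean (vertical axis, log2) against the median deviation of the genes of highest GC content in the same library (horizontal axis, log2), 1 point for each gene and library. In the left panel JUN and JUND have the sign of the library in 12 of 12 libraries, and in the right panel FOS, FOSB, FOSL2 and EGR1 in 6 of 12.

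Between the DMSO groups of the 2 lines, after 6 days, all 10 genes differed. In this comparison 9 were higher in SK-N-BE2 and JUN was lower, 10 called of 10, against 71.1% of 14731 genes (35.7% higher and 35.4% lower). The median log2 difference of the 10 genes was 2.39, against 0.00 for all genes. EGR1 and FOS stood at a log2 difference of 5.77 (SE 0.34, edgeR adjusted p 1.39e-09) and 5.18 (SE 0.30, edgeR adjusted p 1.15e-09). The differences of FOSB (3.63), FOSL1 (2.63), JUNB (2.16), IER2 (2.16), JUND (1.46) and FOSL2 (0.65) followed on the same scale, and JUN stood at -1.13 (SE 0.19, edgeR adjusted p 7.76e-05). GADD45B had 1975 reads over the SK-N-BE2 controls and none over the NGP controls, so it was at least 316-fold higher in SK-N-BE2 against a limit of 3 fragments over the group, each counted as 2 reads, and 632-fold against 3 reads (edgeR adjusted p 3.34e-09).

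The responses of the 2 lines were compared directly in a contrast over all 12 libraries, SK-N-BE2 minus NGP. The response differed for 9 of 10 genes, against 30.9% of all genes (17% more positive in SK-N-BE2 and 13.9% more negative). It was more negative in SK-N-BE2 for FOS (log2 difference -5.54, SE 0.37, edgeR adjusted p 3.28e-07), EGR1 (-5.07, SE 0.41, edgeR adjusted p 1.31e-06), FOSB (-2.89, SE 0.54, edgeR adjusted p 0.00109), IER2 (-1.85, SE 0.25, edgeR adjusted p 8.14e-05), JUNB (-1.53, SE 0.33, edgeR adjusted p 0.00328) and GADD45B. The contrast of GADD45B had an adjusted p of 0.0172, rests on 4 reads in NGP, and was lost without replicate 1 or 3 of the treated NGP libraries (adjusted p up to 0.0724) and with halved counts (adjusted p 0.0609).

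The response was more positive in SK-N-BE2 for JUN (1.42, SE 0.26, edgeR adjusted p 0.00101), JUND (1.14, SE 0.40, edgeR adjusted p 0.0440) and FOSL2 (0.46, SE 0.14, edgeR adjusted p 0.0227). JUND and FOSL2 lost the call when 1 library was left out, JUND for 8 of 12 libraries (adjusted p up to 0.125) and FOSL2 for 5 of 12 (up to 0.0662). JUND also lost it with upper-quartile scaling (adjusted p 0.0550) and in DESeq2 (0.0748). FOSL1 was not called (-0.18, SE 0.64, edgeR adjusted p 0.875). FOS and EGR1 were the 2 members called in both lines, and both changed in opposite directions, against 643 of the 3406 genes called in both lines (18.9%).

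Without replicate 1 of the NGP controls, the library that stood apart, the rises in NGP were 3.40 for FOS (edgeR adjusted p 5.26e-05), 2.89 for EGR1 (0.000262) and 2.50 for FOSB (0.00294), and the falls were -1.67 for JUN (2.49e-05) and -1.19 for JUND (0.000858). With FOSL2, 6 members were then called in NGP. The difference between lines was -5.43 for FOS and -5.07 for EGR1 without that library, and the one of JUND was no longer called (0.89, edgeR adjusted p 0.0603). All 10 members still differed between the lines with DMSO.

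Divided by the length of all counted exons, as a rough scale between genes, the order of the 10 levels differed between the groups. That length equals the MANE Select transcript for JUN, JUNB, JUND and EGR1 and exceeds it for the others. For IER2 it is 3079 against 2110 bases and for FOS 3186 against 2104. Levels of these other genes are thus lower than per transcript length, and the order of IER2 and JUND in untreated SK-N-BE2 depends on the length used. In RPKM (TMM-scaled CPM per kilobase of exon), SK-N-BE2 with DMSO was led by JUND at 174 ± 61.0 (SD, n = 3), EGR1 at 143 ± 9.51, IER2 at 134 ± 26.8 and JUNB at 122 ± 37.4. JUN at 35.6 and FOS at 22.8 stood lower. In NGP with DMSO the RPKM of JUN was highest at 77.8 ± 5.32, followed by JUND at 63.1 ± 17.4, IER2 at 30.1 and JUNB at 27.3, with EGR1 at 2.62 and FOS at 0.628. With STM2457, NGP had IER2, JUNB, JUN, JUND and EGR1 between 20.1 and 34.1 RPKM. In treated SK-N-BE2, JUND stood at 144 RPKM, and JUNB, IER2, EGR1 and JUN lay between 29.5 and 42.7. FOSB and FOSL1 stayed at or below 1.01 RPKM in each group.

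The 7 AP-1 genes were also summed per library in RPKM to describe the makeup of FOS and JUN transcripts. Counted exon length exceeds transcript length in the FOS family alone, so its shares are lower than per transcript length in every group. The sum was 303, 303 and 489 in SK-N-BE2 with DMSO and 297, 189 and 222 with STM2457, and 203, 152 and 170 in NGP with DMSO and 84.9, 113 and 68.3 with STM2457. Treated libraries lay below all controls in both lines. The FOS family made up 10.9%, 10.7% and 7.28% of the sum in the SK-N-BE2 controls and 6.36%, 10.3% and 8.71% in the treated libraries, which overlapped. In NGP it made up 2.93%, 5.26% and 4.08% with DMSO and 18.4%, 10.9% and 17.7% with STM2457, without overlap.

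Within the sum, single subunits shifted in their shares. JUN went from 44.8% ± 3.46 (SD, n = 3) to 27.2% ± 0.0979 in NGP, and FOS from 0.376% ± 0.255 to 8.70% ± 2.91. The share of JUNB was 33.4% ± 1.68 without and 18.3% ± 1.14 with STM2457 in SK-N-BE2, and 15.5% ± 1.02 without and 30.6% ± 2.21 with it in NGP. The share of JUND was 47.1% ± 3.24 without and 60.6% ± 3.91 with STM2457 in SK-N-BE2, and 35.6% ± 4.45 without and 26.5% ± 2.01 with it in NGP. The differences in shares were not tested, and the level of JUNB itself did not pass the test in NGP.

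**Figure D4:**
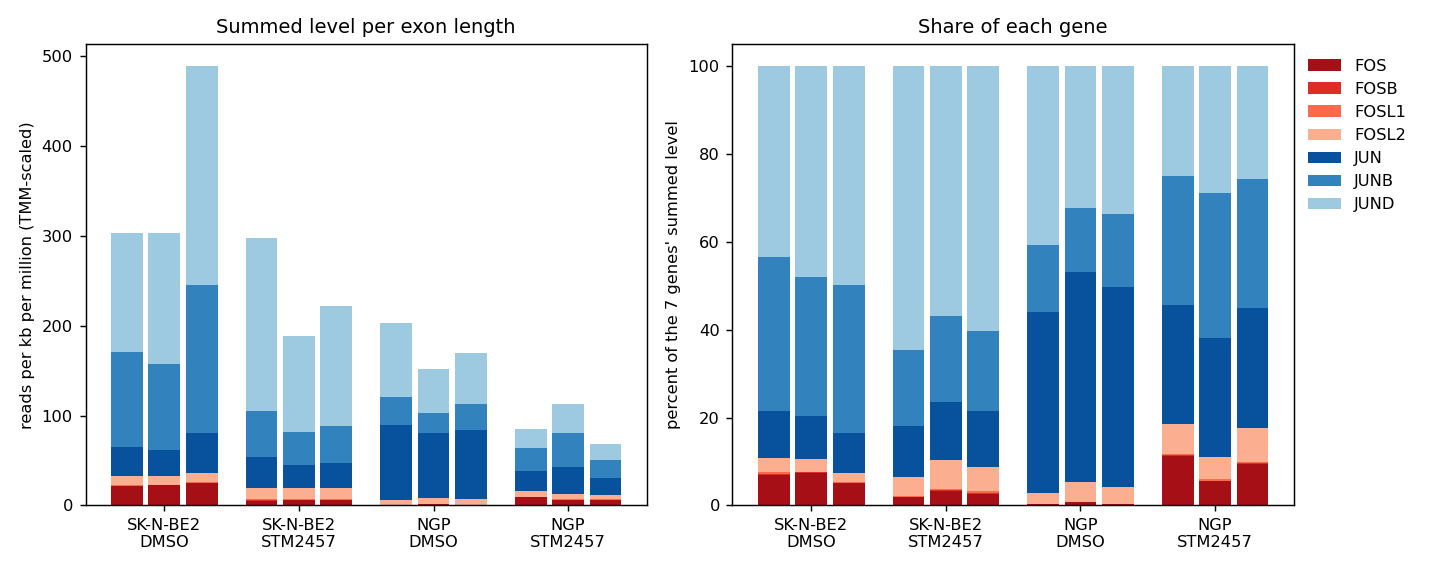
The 7 FOS and JUN family genes in each of the 12 libraries, as summed level in RPKM (left) and as percent of that sum (right), with red for the FOS family and blue for the JUN family. In NGP the FOS family takes 2.93% to 5.26% with DMSO and 10.9% to 18.4% with STM2457.

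The likeness of profiles was measured as the root mean square difference between log2(CPM + 0.5) profiles over the 12 libraries, each centred on its own mean. The genes compared had a mean of at least 1 CPM in some group, 13312 besides the members. For FOS the nearest gene of all was EGR1, at 0.527 log2 units, and the reverse held too. CRABP2 (0.559) and KDR (0.589) were the nearest genes to FOS outside the 10, and VIP (0.623) and FZD7 (0.650) the nearest to EGR1. For IER2 the nearest gene of all was JUNB at 0.186, followed by SNORC (0.200) and CYP4F11 (0.208). For JUNB the nearest was ICAM5 (0.166), then IER2, and CDK2AP2 at 0.241. JUNB and IER2 lie 357 kb apart on chromosome 19.

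For the other 6 members, the nearest member stood at place 512 (GADD45B) to 8169 (JUN) among all genes. JUN was nearest to KDM6B (0.162) and TTLL11 (0.191), JUND to CEND1 (0.278) and SPATA2L (0.283), and FOSL2 to PPP2R5C (0.0779) and CTBP2 (0.0865). FOSB was nearest to TRAM2 (0.217) and MT-CYB (0.239), FOSL1 to TMEM25 (0.201) and CCDC78 (0.210), and GADD45B to TMEM154 (0.287). The constant added to CPM before the log2 shrinks differences of scarce genes, so a small distance need not mean equal fold changes. FOSB had means of 2.29 CPM in SK-N-BE2 and 0.183 CPM in NGP with DMSO, against 35.2 and 10.1 CPM for TRAM2. For FOSL1 these means were 1.46 and 0.236 CPM, against 36.0 and 13.9 CPM for TMEM25. CYP4F11, named above for IER2, had 1.75 and 0 CPM, against 414 and 92.8 CPM for IER2. A flat profile such as that of FOSL2 gives small values for many genes, and FOS and EGR1, with their own spread of 1.81 and 2.12 log2 units, give larger ones.

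**Figure D5:**
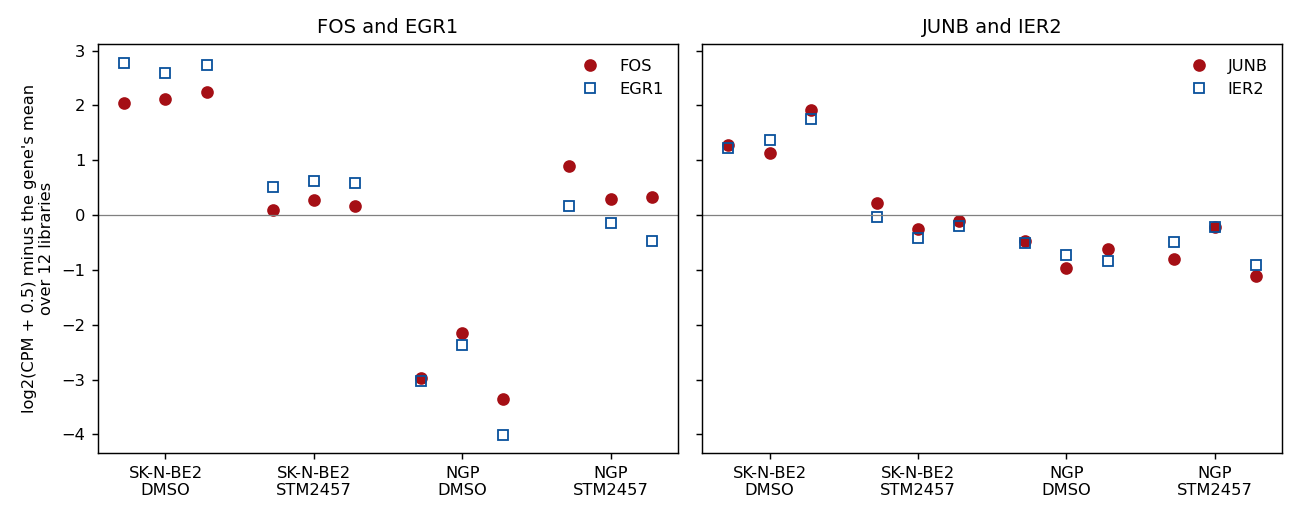
Log2(CPM + 0.5) of each library minus the gene's mean over the 12 libraries (vertical axis), for FOS and EGR1 (left) and JUNB and IER2 (right). FOS and EGR1 lie a root mean square of 0.527 log2 units apart, and JUNB and IER2 0.186.

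Among 40 other immediate early genes, 38 were tested in SK-N-BE2, of which 6 rose and 21 fell by edgeR (median log2 change -0.54), 71.1% called against 54.7% of all genes. In NGP 32 were tested, of which 10 rose and 13 fell (median 0.12), 71.9% called against 41.7%. PPP1R15A, which reverses the phosphorylation of eIF2-alpha, fell in both lines, at -2.65 (adjusted p 4.04e-09 by edgeR) in SK-N-BE2 and -2.63 (adjusted p 2.15e-05) in NGP. CEBPB, a bZIP transcription factor, fell from 144 to 17.9 CPM in SK-N-BE2 (-3.04, edgeR adjusted p 9.65e-07) and from 106 to 17.4 CPM in NGP (-2.63, edgeR adjusted p 0.000305). In NGP, SOCS3, an inhibitor of cytokine signalling, rose from 0.249 to 5.08 CPM (4.31, edgeR adjusted p 3.88e-05), and ZFP36L1, which promotes decay of AU-rich messenger RNA, from 0.669 to 9.07 CPM (3.73, edgeR adjusted p 3.64e-05). ZFP36L1 also rose in SK-N-BE2 (0.85, edgeR adjusted p 5.54e-05), where SOCS3 missed the threshold (-0.16, edgeR adjusted p 0.755).

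Of these 40 genes, 16 were called in both lines. The direction was opposite in 3 of them, 18.8% against 18.9% of all genes called in both lines. These 3 fell in SK-N-BE2 and rose in NGP: IER3, IER5 and ZFP36, the last named after its values were seen. ZFP36 stood at -1.24 and 2.17 (edgeR adjusted p 3.55e-06 and 0.00171), IER3 at -1.61 and 1.36 (0.000415 and 0.0477) and IER5 at -0.76 and 0.43 (5.73e-05 and 0.0258). The NGP calls of IER3 and IER5 were each lost when any of 5 of the 6 libraries was left out. EGR3, a relative of EGR1, fell in SK-N-BE2 (-0.97, edgeR adjusted p 0.00389), a call lost in the joint fit of all libraries (adjusted p 0.103), and EGR2 did not pass the test there (-0.19, edgeR adjusted p 0.755). Neither was tested in NGP.

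AP-1 also forms with partners outside the FOS and JUN families. Of 15 such genes, 11 were tested in SK-N-BE2 and 6 fell (median -0.58), 54.5% called against 54.7% of all genes. None rose there by edgeR, by DESeq2 or at an unadjusted p of 0.05 (0 genes each). In NGP 13 were tested, 7 fell and 1 rose (median -0.78), 61.5% called against 41.7%. ATF3, a stress-induced partner of JUN, fell from 49.1 to 5.62 CPM in SK-N-BE2 (-3.17, edgeR adjusted p 3.80e-09). In NGP it fell from 64.5 to 7.42 CPM (-3.15, edgeR adjusted p 2.50e-06). Its responses in the 2 lines differed by -0.01 (edgeR adjusted p 1.00), whereas those of FOS differed by -5.54. JDP2, ATF4 and BATF3 fell in both lines too. JDP2 stood at -2.81 in SK-N-BE2 and -0.93 in NGP (edgeR adjusted p 4.31e-08 and 0.00253). ATF4 stood at -1.92 and -0.78 (edgeR adjusted p 8.79e-09 and 0.00506), and BATF3 at -0.58 and -1.16 (edgeR adjusted p 0.0473 and 0.00363). The SK-N-BE2 call of BATF3 was lost when any of 5 of the 6 libraries was left out (edgeR adjusted p up to 0.162). It was also lost in 4 of 9 other alternatives. MAFK fell in NGP (-3.58, edgeR adjusted p 0.000868) but missed the threshold in SK-N-BE2 (-0.39, adjusted p 0.145).

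Regulators of FOS and EGR1 transcription and kinases of AP-1 were tested for 22 genes in each line. In SK-N-BE2 4 rose and 7 fell (median -0.07), and in NGP 4 rose and 6 fell (median -0.03). The shares called, 50% and 45.5%, were near the 54.7% and 41.7% of all genes. SRF, the factor that binds CArG boxes, fell in both lines (-0.40, edgeR adjusted p 0.00144, and -0.64, edgeR adjusted p 0.00185). RPS6KA5, a kinase of CREB and histone H3, also fell in both (-1.29, edgeR adjusted p 1.63e-06, and -1.14, edgeR adjusted p 0.00141). NAB2, which represses EGR1 activity, fell in SK-N-BE2 (-0.63, edgeR adjusted p 9.26e-05) but missed the threshold in NGP (0.19, adjusted p 0.244). RPS6KA2, a kinase activated by ERK, fell in both lines (-0.92 and -0.44, edgeR adjusted p 1.91e-06 and 0.0202). Its NGP call was lost when any of 4 of the 6 libraries was left out (edgeR adjusted p up to 0.0983). ELK3, a partner of SRF, rose from 13.4 to 53.3 CPM in NGP (1.97, edgeR adjusted p 9.71e-06) and by 0.48 in SK-N-BE2 (edgeR adjusted p 0.000209). RPS6KA1 rose by 0.77 in NGP (edgeR adjusted p 0.00373) but missed the threshold in SK-N-BE2 (-0.21, adjusted p 0.0697).

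Genes known as AP-1 targets were 20, of which 14 were tested in SK-N-BE2 (6 rose, 3 fell, median 0.11) and 12 in NGP (3 rose, 1 fell, median -0.27). The shares called were 64.3% against 54.7% of all genes in SK-N-BE2 and 33.3% against 41.7% in NGP. PLAUR, the urokinase receptor, rose in both lines (1.13, edgeR adjusted p 0.000162, and 2.11, edgeR adjusted p 6.05e-05). SPHK1, which makes sphingosine 1-phosphate, rose in SK-N-BE2 (1.00, edgeR adjusted p 0.000625) but missed the threshold in NGP (-0.58, adjusted p 0.0519). It was called lower in NGP without replicate 2 or 3 of the controls, with no filter, in DESeq2 and in the joint fit. UCN, a neuropeptide gene, fell in SK-N-BE2 (-1.47, edgeR adjusted p 0.0141), a call lost when any of 3 of the 6 libraries was left out. Its change in NGP missed the threshold (-0.77, edgeR adjusted p 0.280). VIM (1.58, edgeR adjusted p 0.000161) and TIMP1 (1.04, edgeR adjusted p 0.00297), which mesenchymal cells also express, rose in NGP. In SK-N-BE2 VIM fell (-0.24, edgeR adjusted p 0.0320) and TIMP1 rose (0.36, edgeR adjusted p 0.0140). This VIM call was lost when any of 4 of the 6 libraries was left out, with a replicate block and in the joint fit. That of TIMP1 was lost without replicate 3 of the treated libraries and in the joint fit. The mesenchymal marker sums given above were higher with STM2457 in both lines.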

How the data were processed

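RNA of SK-N-BE2 and NGP cells was measured in 12 libraries, grouped by the line and treatment in their titles. Reads in exons were counted by the authors with featureCounts 2.0.5, per the file headers, for protein-coding genes of GENCODE 33, in paired mode, with no strand option and without multi-mapping reads. The deposited values are whole-number counts, not normalized, of 47242379 to 58159937 reads per library. Per the submitters' processing notes, GRCh38, FastQC 0.11.5, Trimmomatic 0.36, HISAT2 2.1.0 and Subread 1.5.3 were used. That Subread version differs from the header's. Both reads of a fragment may have been counted, as 72.1% to 75.4% of counts from 1 to 20 were even, so counting limits are too narrow.

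The counts of each line were fitted with edgeR 4.0.16 (R 4.3.3): TMM scaling, filterByExpr with a minimum count of 10, its quasi-likelihood test and Benjamini-Hochberg adjustment over all genes tested (threshold 0.05). Contrasts between lines used 4 group means over all 12 libraries. Standard errors come from the log2 change and its F statistic. No spike-in was used, so changes are relative. The fits were tested on simulated data. The 10 members and the 4 gene lists were chosen with earlier results of these data known. Every member is named, and of each list up to 3 called genes per line with the largest change and at least 1 CPM, plus EGR2, EGR3, IER3, IER5, GADD45A, GADD45G, ATF3 and SRF. For each member, the 2 nearest genes by profile are named, except 1 for GADD45B. One list gene, MAPK10, was not analysed here. Alternatives were other scalings and filters, DESeq2 1.42.0, leaving out each library, a replicate block, a joint fit and halved counts. Removal of each library's GC trend in 20 bins, between groups as well as within them, was added after seeing the data. Promoters come from RefSeq (GRCh38.p14), and FOSL1 has none in the table used here. Transcript GC comes from GENCODE 44.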

Additional observations from a re-analysis of the deposited data

Results flagged for a closer look

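The STM2457 response differed between the 2 lines for 9 of the 10 genes in edgeR's test of the difference itself (SK-N-BE2 minus NGP, 12 libraries, adjusted over 14731 genes), against 30.9% of all genes. Between 6 and 9 were called when 1 library was left out, and the calls of JUND, FOSL2 and GADD45B were each lost under some alternatives. For FOS the difference was -5.54 on the log2 scale and for EGR1 -5.07, the members that fell in SK-N-BE2 and rose in NGP. FOSB differed by -2.89, with its rise in NGP and no call in SK-N-BE2, and IER2 and JUNB by -1.85 and -1.53, with falls in SK-N-BE2 and no call in NGP. JUN differed by 1.42 and JUND by 1.14, with falls in NGP and no call in SK-N-BE2, and FOSL2 by 0.46. GADD45B had a fitted difference of -6.47, which depends on the prior count because the NGP controls held 0 reads, and which is no bound. Line, dose and sequencing run cannot be told apart in these differences.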

How the results depend on the processing

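The number of the 10 genes called stayed within 1.5 times its value in every alternative run. Leaving out 1 library at a time gave 6 to 8 called in SK-N-BE2, 5 to 6 in NGP, 6 to 9 for the difference between lines and 10 for the lines with DMSO. FOS and EGR1 kept their direction and call in each alternative and comparison. With a replicate block 6, 5, 7 and 10 genes were called in these comparisons. Same-numbered libraries of a line were not correlated in their deviations (-0.06, 0.09 and 0.03 in SK-N-BE2, 0.01, -0.07 and 0.02 in NGP), so the labels' numbers give no pairing. The block ended the calls of the difference for JUND (1.17, adjusted p 0.0601) and FOSL2 (0.46, adjusted p 0.0504). JUNB in NGP, near 0 and not called, changed sign with DESeq2 size factors (0.0037), in DESeq2 (0.0038), in the joint fit (0.013) and with the GC trend removed (0.41), and ranged from -0.28 to 0.17 when 1 library was left out. Ranges of the same kind that crossed 0 were -0.56 to 0.018 for JUND, -0.71 to 0.20 for EGR2 and -0.47 to 0.11 for SOCS3 in SK-N-BE2, and -0.53 to 0.32 for FOSL1 in the difference between lines. The cause was not tested. FOSB and FOSL1 in NGP rest on 6 to 68 reads per library and GADD45B on 0 to 2.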

Other observations

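METTL3 deposits N6-methyladenosine mostly at DRACH sites, of which GGACT is a frequent form. The count of GGACT per kilobase of MANE Select transcript differed among the members. EGR1 had none, JUNB had 0.546 per kilobase (percentile 25.8 of all genes), and the median over all genes was 0.923. JUN had 1.54 (percentile 79.9) and FOS 1.43 (percentile 76.2). IER2 had 2.84 and GADD45B 2.92, at percentiles 97.4 and 97.7. FOSB had 1.32, FOSL1 1.18, FOSL2 1.04 and JUND 1.04. These are counts of letters, methylation was not analysed here, and a relation of the density to the responses was not tested.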
